A study of Mus musculus with 38 samples.

Results

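This report compares the response to loss of both Foxa1 and Foxa2 with the response to loss of Foxa2 alone in organoids of mouse lung adenocarcinoma, and so asks what Foxa1 still supports once Foxa2 is gone. The comparison used 18 of the 38 RNA libraries of the series, chosen by genotype and by the absence of a hairpin construct. The organoids, cultures of tumour cells in Matrigel, were kept in L-WRN conditioned medium, and each line was started from 1 tumour of mice of mixed 129/B6 background. All lines, of both genotypes, carried a Flp-deletable p53 gene and a Flp-activated CreERT2 at Rosa26. The double-floxed lines 1027B, 1027D and 1292B carried floxed Foxa1 and floxed Foxa2 and gave 5 vehicle and 5 4-OHT libraries. Replicates 1 and 4 came from 1027B, 2 and 5 from 1027D, and 3 from 1292B. The Foxa2-floxed lines 1267B and 1526C carried floxed Foxa2 only, made up replicates 1 and 2 (1267B) and 3 and 4 (1526C), and gave 4 vehicle and 4 4-OHT libraries. Cultures received ethanol or 2 uM 4-hydroxytamoxifen (4-OHT), which activates CreERT2, for 72 hours. No line lacked a floxed Foxa gene, so effects of 4-OHT or of Cre itself cannot be told apart from loss of the Foxa genes where both genotypes share them. Genotype differed between tumours, so a difference between genotypes cannot be told apart from a difference between these 5 tumours.

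Foxa1 and Foxa2 are closely related forkhead transcription factors that bind and open chromatin at enhancers of endodermal tissues. In lung epithelium they are known for supporting surfactant genes together with Nkx2-1, and in stomach, intestine and liver for supporting the genes of those tissues. Because both bind similar sites, one is known to be able to cover for the other at many genes.

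The quantity tested was a difference of 2 effects on the log2 scale. The first effect is 4-OHT minus vehicle within the double-floxed lines, the second is 4-OHT minus vehicle within the Foxa2-floxed lines, and the difference is the first minus the second. A difference below 0 means that the gene ended lower, relative to its own vehicle control, when both genes were floxed. Levels are given as CPM, the counts of a gene scaled to a common library size, which compare a gene between libraries and not different genes with each other. Total counts ran from 18.3 M to 32.0 M per library, and mitochondrial transcripts took 1.8% to 2.61% of them. Repeat libraries of a line were summed before the test, and the p-values measure the spread between these few lines. The labels give no time of RNA collection after 4-OHT. In bulk RNA, fewer cells of a type and less RNA per cell cannot be told apart.

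The targeted genes were examined first. Foxa2 (ENSMUSG00000037025, GRCm38 chromosome 2, 148042877 to 148046969) stood at 92.1, 111, 61.9, 190 and 125 CPM in the double-floxed vehicle libraries and at 6.17, 6.19, 5.48, 2.67 and 4.58 CPM after 4-OHT. The Foxa2-floxed libraries stood at 73.9, 82.0, 118 and 110 CPM with vehicle and at 3.08, 4.12, 1.91 and 2.12 CPM after 4-OHT. Every 4-OHT library lay far below every vehicle library in both genotypes. Groups that merely did not overlap, in this direction, were seen for 1.62% of the genes tested in double-floxed and 1.13% in Foxa2-floxed organoids. The difference of effects was 0.69 ± 0.60 on the log2 scale (SE), with a 95% interval from -0.77 to 2.16. The interval includes an equal loss of Foxa2 in both genotypes but is wide, so an equal loss was not shown.

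Foxa1 (ENSMUSG00000035451, chromosome 12, 57540628 to 57546916) was the gene meant to separate the genotypes. In double-floxed organoids it held 17.8, 29.4, 89.5, 67.4 and 39.4 CPM with vehicle and 13.8, 13.2, 18.9, 11.8 and 9.19 CPM after 4-OHT, and it fell by 1.96 on the log2 scale (edgeR adjusted p = 0.00871). The ranges overlapped, because vehicle replicate 1 of line 1027B was already low. In Foxa2-floxed organoids Foxa1 held 116, 114, 96.3 and 64.4 CPM with vehicle and 149, 139, 134 and 139 CPM after 4-OHT. All 4 of these 4-OHT libraries were above all 4 vehicle libraries, which 1.67% of the genes tested also showed, and the fitted change of 0.54 did not pass the test (edgeR adjusted p = 0.605). The difference of effects was -2.50 ± 0.25 (SE; edgeR adjusted p = 0.12). Counts over a whole gene do not show how much of the floxed sequence was excised.

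Of the related genes, Foxa3, the third member of the family, held 34.7, 36.7, 9.66, 24.1 and 20.7 CPM in double-floxed vehicle libraries and 5.63, 8.52, 6.94, 16.5 and 5.24 CPM after 4-OHT. With only Foxa2 floxed, it went from 10.7, 9.29, 17.4 and 24.3 CPM to 6.72, 3.75, 11.9 and 13.5 CPM. Its difference of effects was -0.45 ± 0.48, with a 95% interval from -1.63 to 0.72. Nkx2-1, the lung lineage factor, had a difference of 0.18 ± 0.24 (interval -0.41 to 0.76), with mean levels of 214 and 215 CPM in double-floxed organoids and 257 and 218 CPM in Foxa2-floxed organoids (vehicle and 4-OHT). Neither gene's difference passed the test (edgeR adjusted p = 0.893 and 0.922).

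Across all genes, 4-OHT changed many genes in the double-floxed lines, and the difference from the Foxa2-floxed lines, although large for some genes, passed the adjusted threshold for none. Of 18096 genes tested, 0 (0%) had a difference of effects at an edgeR adjusted p under 0.05. At an unadjusted p under 0.05 there were 1264 (6.98%), of which 676 (3.74%) lay below 0 and 588 (3.25%) above. The smallest adjusted p was 0.0501, for Tff1. By DESeq2, 189 genes were called lower and 122 higher. With the 18 libraries entered singly and the line as block, edgeR called 18 lower (0.115%) and 1 higher (0.00637%) of 15702 genes (0.121% in all). A block of line and library series keeps vehicle libraries with their 4-OHT partners. In 1 Foxa2-floxed line it does not pair them, because all libraries of that line share the same series. With this block, and repeat libraries of a line again counted as separate replicates, edgeR called 122 lower and 68 higher. With the 3 Foxa1-floxed lines added to the fit to estimate the spread, it called 30 lower (0.157%) and 7 higher (0.0367%) of 19085 (0.194% in all). The fits with the line as block and with the added lines shared 10 called genes, which were Acmsd, Acsl1, Gkn2, Itih2, Lpl, Mmp15, Pla2g1b, Sh2d4a, Slco4c1 and Trf. DESeq2 called 9 of these, all but Acmsd. Acmsd, Acsl1, Mmp15, Sh2d4a and Slco4c1 are named for this overlap, after their values were seen.

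The effect within the double-floxed lines passed the test for 1176 genes (6.5%), 561 lower (3.1%) and 615 higher (3.4%), in the fit summed per line. The effect within the Foxa2-floxed lines passed it for 0 genes (0%), with 1295 (7.16%) at an unadjusted p under 0.05, 9 higher and 10 lower with libraries entered singly, and 184 higher and 88 lower by DESeq2. That contrast rested on 2 lines. The counts in double-floxed lines moved with each line left out: 23 genes were called higher and 59 lower without line 1027B, 168 and 216 without 1292B, and 313 to 363 and 308 to 325 without 1027D, 1267B or 1526C. The 561 genes that fell with both genes floxed had a median effect of -1.49 there and of -0.39 in Foxa2-floxed organoids. Among them, 502 had an effect of the same sign in Foxa2-floxed organoids, 382 of these smaller by more than a factor of 2, and 59 had the opposite sign. The 615 genes that rose had medians of 1.68 and 0.63, with 575 of the same sign and 40 of the opposite sign. Both sets were chosen by their effect in the double-floxed lines, so these medians describe them and are not a test.

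**Figure D1:**
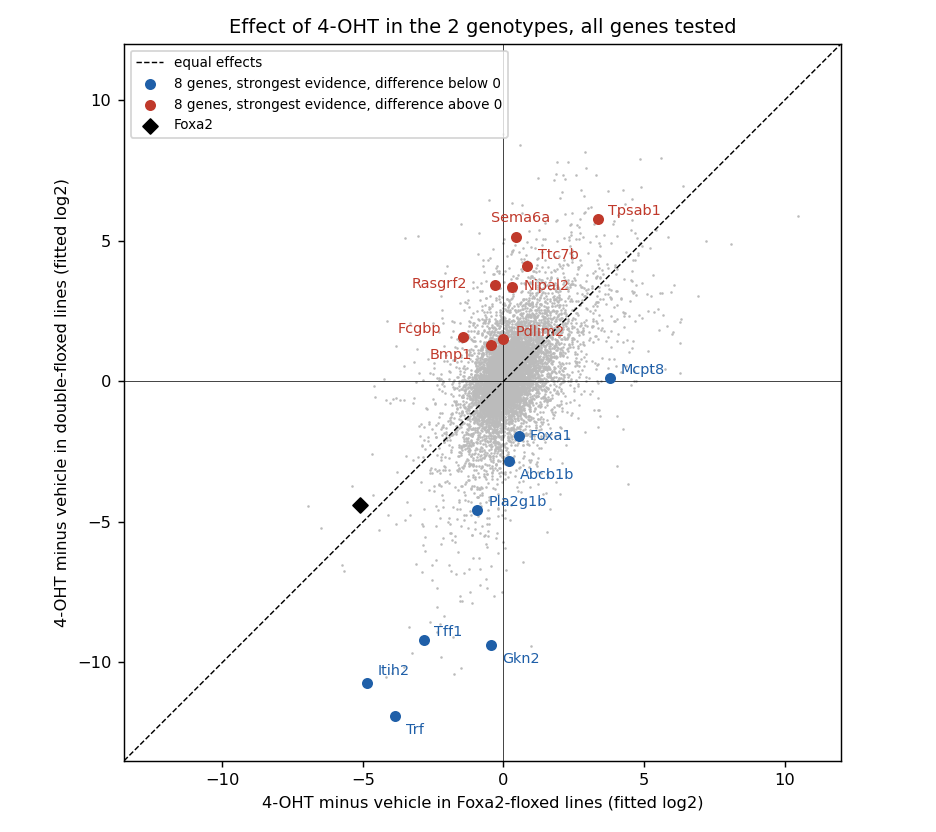
Fitted log2 effect of 4-OHT in the Foxa2-floxed lines (x axis) against that in the double-floxed lines (y axis) for each of the 18096 genes tested (grey), with the dashed line marking equal effects. Foxa2 (diamond) lies near the dashed line, the 8 labelled genes in blue lie below it and the 8 in red above it, and none of these differences passed the adjusted threshold.

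The genes named next are the 8 in each direction with the smallest p for the difference, and none passed the adjusted threshold in the fit summed per line. Tff1 (chromosome 17, 31161395 to 31165277) encodes a trefoil peptide secreted with gastric mucus. With vehicle it held 10.2, 108, 888, 1624 and 99.7 CPM in double-floxed organoids and with 4-OHT 0.0979, 0.0507, 1.75, 2.21 and 0.387 CPM. The Foxa2-floxed organoids went from 120, 60.7, 926 and 1388 CPM to 13.6, 7.53, 191 and 216 CPM. In the double-floxed lines 0.165% of the mean vehicle level was left, against 17.2% in the Foxa2-floxed lines, and every double-floxed 4-OHT library lay below every Foxa2-floxed 4-OHT library, as was so for 5.81% of genes. Tff1 fell by 9.19 on the log2 scale in the double-floxed lines (edgeR adjusted p = 0.00105), and its effect was -2.84 in the Foxa2-floxed lines. The difference was -6.35 ± 0.37 (SE), with a 95% interval from -7.26 to -5.43 and an edgeR adjusted p of 0.0501. Repeat libraries of line 1027B with vehicle were far apart (10.2 and 1624 CPM). Without the second of these, double-floxed vehicle replicate 4, the difference was -4.24 (edgeR adjusted p = 0.937), a setting that keeps its 4-OHT partner of the same library series and so sets it against the other vehicle library. Within each series Tff1 was lower after 4-OHT in this line (10.2 against 0.0979 CPM, and 1624 against 2.21 CPM). With libraries entered singly and a block of line and library series, which keeps such partners together, the difference was -6.23 (edgeR adjusted p = 0.000153). Repeat libraries of a line count as separate replicates there. That p therefore does not measure the spread between lines, unlike the 0.0501 of the fit summed per line.

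Gkn2 (chromosome 6, 87373357 to 87379497) encodes gastrokine 2, a secreted product of gastric surface mucous cells that binds Tff1. Its double-floxed vehicle libraries held 65.9, 481, 16, 483 and 426 CPM, and the 4-OHT libraries 0.0489, 0, 0, 1.01 and 0.982 CPM. In Foxa2-floxed line 1526C it went from 315 and 367 CPM to 148 and 174 CPM. Line 1267B expressed next to none of it (0 and 0.293 CPM with vehicle, 0.0513 and 0.744 CPM with 4-OHT), so the Foxa2-floxed effect of -0.43 rested on 1 line. Gkn2 fell by 9.38 in the double-floxed lines (edgeR adjusted p = 0.00691), and the difference was -8.95 ± 0.74 (edgeR adjusted p = 0.0955). Both other gastrokine genes belong to the gastric list and are given here although chosen after their values were seen. Gkn3 had a difference of -7.29 (edgeR adjusted p = 0.373) and Gkn1 of -1.75 (0.766).

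Promoter sequence is shown for Gkn2 and Gkn3 because they are neighbours, had large negative differences and each hold a forkhead-type motif. The lines give the 250 bases before the RefSeq start of each gene, 5′ to 3′ on the gene's own strand, from RefSeq on GRCm38.p6, at chr6:87373115-87373364 (plus strand) and chr6:87388936-87389185 (minus strand). Capitals mark the motif.
Gkn2: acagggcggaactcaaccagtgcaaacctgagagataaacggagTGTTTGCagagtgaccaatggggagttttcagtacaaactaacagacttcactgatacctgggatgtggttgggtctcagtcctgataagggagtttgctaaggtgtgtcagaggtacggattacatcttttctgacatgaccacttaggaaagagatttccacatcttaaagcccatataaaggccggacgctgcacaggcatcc
Gkn3: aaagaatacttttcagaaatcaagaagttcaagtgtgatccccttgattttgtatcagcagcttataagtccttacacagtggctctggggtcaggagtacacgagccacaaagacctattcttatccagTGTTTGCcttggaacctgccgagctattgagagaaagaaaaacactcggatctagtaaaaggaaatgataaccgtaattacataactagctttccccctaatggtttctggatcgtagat
The motifs searched were TGTTTAC and TGTTTGC on both strands. The first match begins 206 bases before the start in Gkn2 and 120 bases before it in Gkn3. Of 32851 promoters searched in the same way, 7.29% hold either motif. Of the 16 genes named for their p, 9 have a promoter in the table and 2 of these, Gkn2 and Foxa1, hold a motif. A match describes the letters and does not show binding.

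Trf (chromosome 9, 103204001 to 103230444) encodes transferrin, the plasma iron carrier made mainly by liver. Its levels with vehicle were 877, 3471, 250, 256 and 4263 CPM in double-floxed organoids, and with 4-OHT 0, 0.152, 0.291, 0.184 and 1.16 CPM. In Foxa2-floxed organoids it went from 2381, 1599, 200 and 517 CPM to 313, 125, 18 and 16.6 CPM. The double-floxed 4-OHT libraries lay below every other library, while the Foxa2-floxed groups overlapped because line 1267B started higher than 1526C. In the double-floxed lines 0.0196% of the mean vehicle level was left, against 10%. Trf fell by 11.91 on the log2 scale in the double-floxed lines (edgeR adjusted p = 0.00347), its Foxa2-floxed effect was -3.87, and the difference was -8.04 ± 0.67 (edgeR adjusted p = 0.0955).

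Itih2 (chromosome 2, 10094593 to 10131396), a heavy chain of the plasma inter-alpha-trypsin inhibitors, went from 9.89, 142, 1.68, 28.2 and 117 CPM to 0, 0.0507, 0, 0.0461 and 0.0595 CPM in double-floxed organoids. Its Foxa2-floxed libraries held 4.88, 7.66, 22.2 and 20.1 CPM with vehicle and 0.205, 0.0930, 1.05 and 0.864 CPM with 4-OHT. All Foxa2-floxed 4-OHT libraries were therefore low too, but above the double-floxed ones. The 5 double-floxed 4-OHT libraries together held 4 counts against 6090 with vehicle, a ratio of 0.000611 with a 95% exact counting interval from 0.000167 to 0.00157. The difference of effects was -5.86 ± 0.59 (edgeR adjusted p = 0.12).

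Pla2g1b encodes a secreted phospholipase A2 known from pancreas. It held 63.6, 57.3, 16.6, 29.8 and 30.4 CPM in double-floxed vehicle libraries and 0.881, 0.812, 0.991, 1.71 and 2.62 CPM after 4-OHT. The Foxa2-floxed libraries held 8.10, 26.6, 9.47 and 13.1 CPM with vehicle and 5.59, 13.8, 5.28 and 5.62 CPM with 4-OHT, and these ranges overlapped. It fell by 4.57 in the double-floxed lines (edgeR adjusted p = 0.00534), and the difference was -3.64 ± 0.35 (edgeR adjusted p = 0.12). Abcb1b encodes a drug efflux transporter of the P-glycoprotein type and has a close copy, Abcb1a. It went from 0.486, 18.3, 31.8, 10.2 and 18.4 CPM to 0.0979, 2.49, 5.65, 1.43 and 2.32 CPM in double-floxed organoids, and from 1.14, 1.67, 7.09 and 6.43 CPM to 1.03, 2.32, 8.88 and 5.36 CPM in Foxa2-floxed organoids. Its effects were -2.82 and 0.21, and the difference was -3.04 ± 0.32 (edgeR adjusted p = 0.137).

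Mcpt8, a granule protease gene of the mast cell and basophil type, reached its negative difference in another way. Its double-floxed libraries moved in both directions, from 87.6, 38.0, 8.41, 142 and 233 CPM with vehicle to 22.9, 80.2, 11.2, 191 and 217 CPM with 4-OHT. The Foxa2-floxed lines held 1.51, 2.59, 0.478 and 1.40 CPM with vehicle and 16.5, 23.5, 15.7 and 24.2 CPM with 4-OHT, with no overlap. The double-floxed effect was 0.13, the Foxa2-floxed effect 3.79 (edgeR adjusted p above 0.05 in both) and the difference -3.66 ± 0.35 (edgeR adjusted p = 0.12). Which member of this protease family the reads came from is uncertain.

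**Figure D2:**
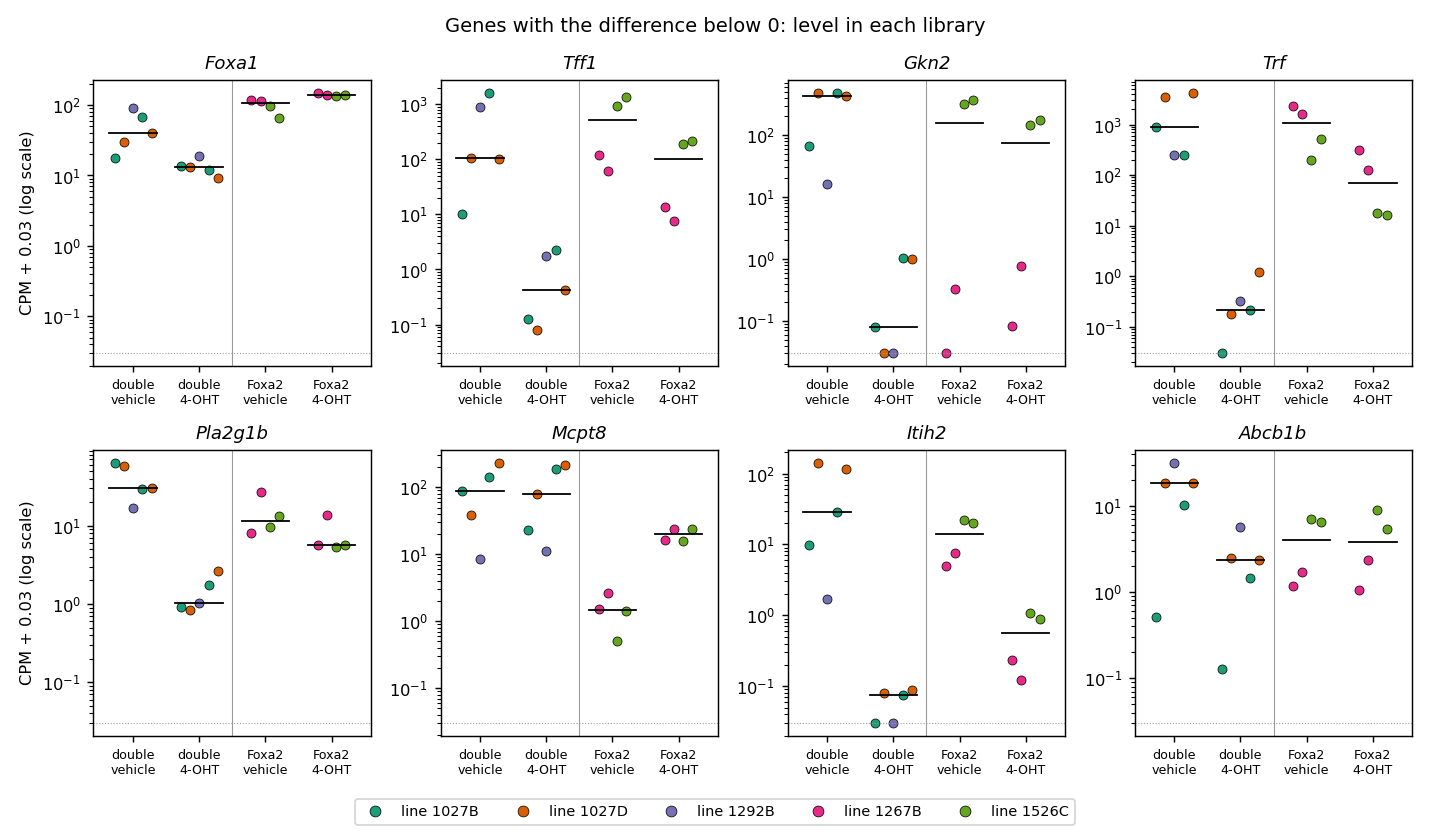
Level of the 8 genes with the smallest p and a difference below 0 in each library (points, coloured by line; log axis with a small offset so that 0 can be drawn, at the dotted line) and the median of each group (bar). The double-floxed 4-OHT libraries of Tff1, Gkn2, Trf, Pla2g1b and Itih2 lie below all their vehicle libraries, while for Mcpt8 only the Foxa2-floxed organoids separate vehicle from 4-OHT.

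As a check in libraries that the test did not use, line 1027B with a scrambled hairpin had been given vehicle or 4-OHT in 2 libraries each, normalised separately from those above. Tff1 went from 101 and 24.8 CPM to 0 and 0, Gkn2 from 21.5 and 17.8 CPM to 0 and 0, and Trf from 3.36 and 6.89 CPM to 0 and 0. Pla2g1b went from 28.2 and 44.2 CPM to 1.41 and 0.904 CPM, and Abcb1b from 5.07 and 10.5 CPM to 0.122 and 0. Itih2 went from 0.825 and 0.608 CPM to 0 and 0. These 6 genes were lower in both 4-OHT libraries. The share of all genes that did so was not computed, so the count is a description. No Foxa2-floxed line had hairpin libraries, so these values bear on the double-floxed effect and not on the difference. Foxa1 went from 32.1 and 22.1 CPM to 20.1 and 18.5 CPM, a smaller step than in most of the libraries above. Mcpt8 held 3.6 and 7.36 CPM and then 4.65 and 1.94 CPM, which overlapped. The line is one of those already described, so it adds no further tumour.

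In the other direction, Fcgbp, which encodes a mucus protein that binds the Fc part of IgG, had the smallest p. It held 0.054, 0.056, 39.4, 0.215 and 1.38 CPM in double-floxed vehicle libraries and 0.392, 1.27, 122, 0.646 and 2.77 CPM after 4-OHT. In Foxa2-floxed organoids it went from 1024, 3546, 2.87 and 11.4 CPM to 844, 1137, 2.58 and 2.02 CPM. Levels differed more between lines than with treatment: 1267B was highest and most double-floxed libraries were near 1 CPM or under it. Fcgbp rose by 1.59 in the double-floxed lines (edgeR adjusted p = 0.00955) and its Foxa2-floxed effect was -1.45, so that all 3 double-floxed lines and both Foxa2-floxed lines had opposite signs, as was so for 4.84% of the genes tested. The difference was 3.04 ± 0.22 (edgeR adjusted p = 0.0771).

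Tpsab1 encodes a tryptase of mast cell granules. It went from 0.27, 10.2, 0.109, 0 and 11.9 CPM to 15.4, 464, 6.76, 0.83 and 621 CPM in double-floxed organoids and from 0.26, 0.167, 1.67 and 7.17 CPM to 0.924, 4.03, 43.4 and 39.9 CPM in Foxa2-floxed organoids. Line 1027D gave the highest values, and levels were above vehicle in each of the 5 lines. Tpsab1 rose by 5.79 in the double-floxed lines (edgeR adjusted p = 0.00105), its Foxa2-floxed effect was 3.35, and the difference was 2.44 ± 0.28 (edgeR adjusted p = 0.163). Of the 10 mast cell markers, Cpa3, Fcer1a and Ms4a2 were at 0 in every library of all 4 groups, and Kit did not exceed 0.217 CPM. The summed level of the list ran from 1.36 to 60.8 CPM and from 9.59 to 691 CPM in double-floxed organoids (vehicle and 4-OHT), and from 6.32 to 50.6 CPM and from 12.7 to 69.1 CPM in Foxa2-floxed organoids. Tpsab1 itself made up most of the highest value.

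Pdlim2, an adaptor of the actin cytoskeleton, went from 22.3, 36.9, 56.3, 40.4 and 31.9 CPM to 65.2, 170, 150, 118 and 70.9 CPM in double-floxed organoids, with no overlap (1.53% of genes). Its Foxa2-floxed libraries held 109, 100, 30.9 and 83.3 CPM and then 100, 132, 43.2 and 56.0 CPM, which overlapped. It rose by 1.5 (edgeR adjusted p = 0.00919), and the difference was 1.53 ± 0.21 (edgeR adjusted p = 0.198). Bmp1, a metalloprotease that trims procollagens, went from 18.4, 119, 107, 5.65 and 65.3 CPM to 39.7, 300.0, 303, 9.82 and 158 CPM in double-floxed organoids, and from 55.7, 34.6, 255 and 187 CPM to 32.3, 25.9, 187 and 194 CPM in Foxa2-floxed organoids. Each double-floxed library was higher than its vehicle partner, although the groups overlapped because the lines start at different levels. It rose by 1.29 (edgeR adjusted p = 0.0108), and the difference was 1.72 ± 0.20 (edgeR adjusted p = 0.163).

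Ttc7b, part of the complex that brings a phosphatidylinositol kinase to the plasma membrane, went from 0, 2.01, 1.36, 0.358 and 1.61 CPM to 7.34, 39.9, 15.2, 2.54 and 35.5 CPM in double-floxed organoids. The Foxa2-floxed libraries went from 3.95, 3.64, 4.34 and 5.58 CPM to 6.72, 6.72, 7.96 and 10.4 CPM. Neither pair of groups overlapped, and the step was larger in the double-floxed lines, with a difference of 3.25 ± 0.40 (edgeR adjusted p = 0.163). Sema6a, a transmembrane semaphorin, Rasgrf2, an exchange factor for Ras, and Nipal2, a member of a family of magnesium transporters, shared another pattern. With vehicle they stood at means of 0.119, 0.183 and 0.362 CPM in double-floxed organoids against 7.06, 21.2 and 17 CPM in Foxa2-floxed organoids. After 4-OHT the double-floxed means were 3.72, 1.81 and 4.62 CPM and the Foxa2-floxed means 9.44, 20.9 and 21.0 CPM. These 3 genes rose in the double-floxed lines by 5.15, 3.44 and 3.37 (edgeR adjusted p = 0.00753, 0.0122 and 0.0107) from levels near 0 and stayed below the mean of the Foxa2-floxed lines. Their differences were 4.71 ± 0.44, 3.77 ± 0.49 and 3.05 ± 0.44 (edgeR adjusted p = 0.12, 0.168 and 0.237). For Sema6a the 5 vehicle libraries held 11 counts in all, and 1 library of line 1027B (16.4 CPM) supplied most of the signal after 4-OHT. The rise was not seen in every line. Sema6a in line 1027D held 0 and 0 CPM with vehicle and 0 and 0.0893 CPM with 4-OHT. Nipal2 in line 1027B held 0 and 0 CPM and then 0.0979 and 0 CPM. Rasgrf2 was at 0 in both treatments in replicate 1 of line 1027B, and went from 0.0358 to 1.11 CPM in replicate 4.

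**Figure D3:**
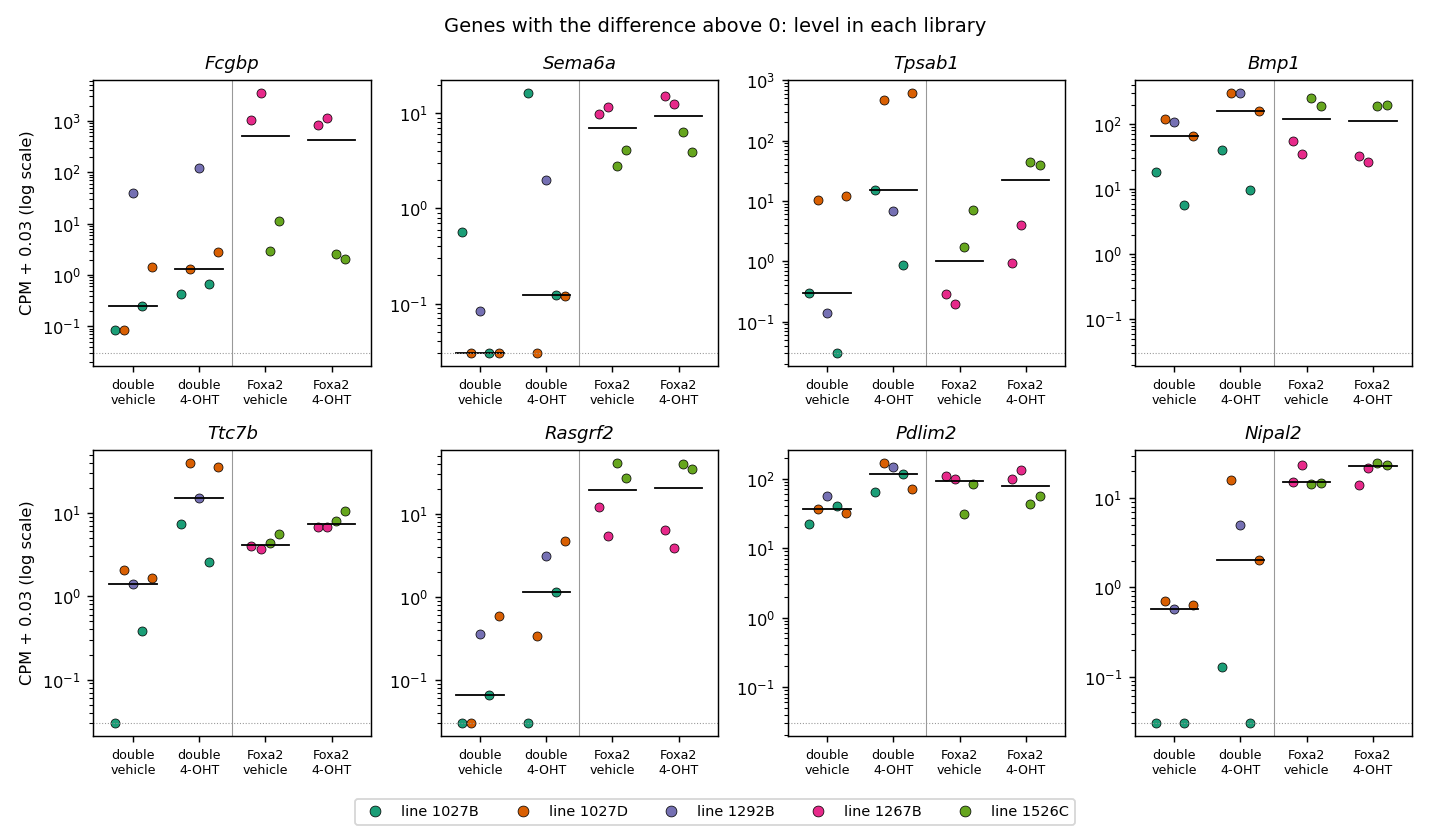
Level of the 8 genes with the smallest p and a difference above 0 in each library (points, coloured by line; log axis with a small offset, 0 at the dotted line) and the median of each group (bar). Pdlim2 and Ttc7b separate vehicle from 4-OHT in the double-floxed organoids, while Sema6a, Rasgrf2 and Nipal2 start near 0 there and lie higher in the Foxa2-floxed organoids.

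In the scrambled hairpin libraries of line 1027B, Pdlim2 stood at 60.0 and 58.8 CPM with vehicle and 133 and 135 CPM with 4-OHT, and Tpsab1 at 4.07 and 1.62 CPM and then 28.3 and 37.3 CPM. Ttc7b went from 1.30 and 0.810 CPM to 4.04 and 1.74 CPM. These 3 genes were higher in both 4-OHT libraries, a description for which the share of all genes was again not computed. Sema6a went from 4.78 and 2.57 CPM to 6.49 and 6.07 CPM, not near 0 with vehicle and with a smaller step than above. Fcgbp stood at 1.12 and 0.540 CPM and then 2.51 and 0.968 CPM, which overlapped. Bmp1 stood at 98.0 and 107 CPM and then 92.2 and 82.2 CPM, and so was not higher after 4-OHT there. Rasgrf2 was at 0 and 0 with vehicle and at 0.122 and 0.194 CPM with 4-OHT, and Nipal2 was at 0 in all 4 libraries.

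Lists of genes of tissues, cell types and pathways were then examined, among them genes of stomach, intestine, liver and lung. In all genes tested the median difference of effects was 0.01, with 49.5% below 0. At an unadjusted p under 0.05, 3.74% lay below and 3.25% above, and the effects of all 3 double-floxed lines lay below both Foxa2-floxed lines for 12.7% and above them for 11.6%. No list had a member past the adjusted threshold in the fit summed per line.

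The gastric list (mucous and chief cell genes) had 16 of 20 members below 0, with a median difference of -1.59, or -1.44 with 1 member at the bound set by a count of 0. Its median effects were -2.29 in double-floxed and -0.60 in Foxa2-floxed organoids. For 7 of the 20 the unadjusted p was under 0.05 with a difference below 0, and for none with one above it. Vsig1, a junction protein of gastric epithelium, went from 57.2, 45.7, 17.4, 119 and 25.9 CPM to 0, 0.304, 0, 5.49 and 0.149 CPM in double-floxed organoids and from 60.0, 51.2, 21.4 and 20.2 CPM to 38.0, 16.5, 14.5 and 14.1 CPM in Foxa2-floxed organoids. It fell by 6.30 in the former (edgeR adjusted p = 0.0118), and the difference was -5.44 ± 0.88 (edgeR adjusted p = 0.26).

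Liver-type plasma protein genes had the lowest median of the lists with at least 10 members. The median difference was -2.73, with 17 of 20 below 0, and the median effects were -3.56 and -0.70. Besides Trf and Itih2, the list holds Serpind1 (heparin cofactor II), which had 1 count in the 5 double-floxed 4-OHT libraries against 880 in the vehicle libraries, a ratio of 0.00106 with a 95% exact counting interval from 2.68e-05 to 0.00591. Serpind1 was at 0.104, 1.00, 2.83 and 1.83 CPM in Foxa2-floxed vehicle libraries and at 0, 0.062, 0.35 and 0.216 CPM after 4-OHT, and thus low in both treated groups. Ttr, which encodes the thyroid hormone carrier transthyretin, had 0 counts in all 5 double-floxed 4-OHT libraries against 243 with vehicle, at least 87-fold lower at a floor of 3 counts over the group. The 4 Foxa2-floxed libraries went from 0.571, 0.67, 18.3 and 14.3 CPM to 0, 0.186, 4.36 and 2.88 CPM, so that line 1526C kept some Ttr.

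In the intestinal list (brush border and enterocyte genes) the medians of the 2 genotypes had opposite signs. The median difference was -1.51, with 18 of 23 below 0, 9 of them at an unadjusted p under 0.05 and median effects of -1.08 in double-floxed and 0.39 in Foxa2-floxed organoids. Myo1a, a motor of the brush border, went from 0.432, 2.13, 4.61, 6.19 and 1.01 CPM to 0.245, 0.507, 1.34, 2.67 and 0.357 CPM in double-floxed organoids. In Foxa2-floxed organoids it stood at 2.23, 4.85, 13.4 and 11.7 CPM with vehicle and at 3.85, 6.85, 35.8 and 44.3 CPM with 4-OHT. All 3 double-floxed lines were lower and both Foxa2-floxed lines higher than their controls, with effects of -1.67 (edgeR adjusted p = 0.0306) and 1.16 and a difference of -2.83 ± 0.43 (edgeR adjusted p = 0.252).

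Lgals4, a gut galectin of the same list, went from 26, 216, 761, 157 and 12.4 CPM to 1.32, 7.71, 115, 14.8 and 5.48 CPM in double-floxed organoids and from 1506, 2047, 413 and 661 CPM to 1131, 1201, 850.0 and 943 CPM in Foxa2-floxed organoids. The Foxa2-floxed lines moved apart in direction, 1267B being lower and 1526C higher after 4-OHT. Lgals4 fell by 3.49 with both genes floxed (edgeR adjusted p = 0.0118), and the difference was -3.53 ± 0.54 (edgeR adjusted p = 0.252). Cdhr5, a cadherin that links microvilli, was at means of 4.83 and 1.76 CPM in double-floxed organoids, mostly from line 1292B and with 1 count in line 1027B, and of 86.4 and 139 CPM in Foxa2-floxed organoids (vehicle and 4-OHT), with a difference of -3.04 ± 0.72 (edgeR adjusted p = 0.45).

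Alveolar type 2 genes, the surfactant program of the lung, had a median difference of -0.62, with 21 of 26 below 0. For 7 (26.9%) the unadjusted p was under 0.05 with a difference below 0, and for 2 (7.69%) with it above 0. In all genes tested these shares were 3.74% and 3.25%. The 2 above were Lpl, with a difference of 3.42 (edgeR adjusted p = 0.238) and limits given below, and Lpcat1, with 0.69 (0.536). Lpl rose by 2.67 in the double-floxed lines (edgeR adjusted p = 0.0185). Here the median effects of both genotypes were similar, at -0.89 in double-floxed and -0.75 in Foxa2-floxed organoids. Even so, the effects of all 3 double-floxed lines lay below both Foxa2-floxed lines for 8 members (30.8%). They lay above both for 2 (7.69%), where all genes tested gave 12.7% below and 11.6% above. Cxcl15, a lung chemokine, went from 2532, 313, 293, 472 and 506 CPM to 21.2, 0.406, 1.75, 9.45 and 3.54 CPM in double-floxed organoids and from 509, 453, 44.5 and 108 CPM to 75.3, 39.5, 18.2 and 24.7 CPM in Foxa2-floxed organoids. The double-floxed groups did not overlap, and the Foxa2-floxed groups did, although both lines were lower after 4-OHT. It fell by 7.06 in the double-floxed lines (edgeR adjusted p = 0.0056), with a Foxa2-floxed effect of -2.54 and a difference of -4.52 ± 0.52 (edgeR adjusted p = 0.163).

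Among the surfactant proteins, Sftpa1 went from 26.2, 191, 0.543, 0.858 and 635 CPM to 0.245, 0.203, 0, 0.138 and 1.70 CPM in double-floxed organoids, and from 132, 417, 81.4 and 66.9 CPM to 65.9, 94.6, 40.5 and 72.2 CPM in Foxa2-floxed organoids. Sftpc went from 887, 23.5, 48.4, 4.97 and 45.5 CPM to 17.2, 0.457, 0.758, 0.599 and 2.56 CPM, and from 1731, 563, 5526 and 2939 CPM to 384, 74.6, 823 and 917 CPM. With both Foxa genes floxed, Sftpa1 fell by 7.88 and Sftpc fell by 5.13 (edgeR adjusted p = 0.00929 and 0.00721). Their differences were -6.76 ± 0.87 and -2.74 ± 0.44 (edgeR adjusted p = 0.163 and 0.26). Those of Sftpb and Sftpd were smaller, at -1.04 and -0.86 (edgeR adjusted p = 0.823 and 0.886). Sftpc was lower in the double-floxed lines already with vehicle, at a mean of 202 CPM against 2690 CPM.

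Among 30 transcription factor genes of lung, gut and liver epithelium, the median difference was -0.15 and 16 lay below 0, near the share in all genes. The unadjusted p was under 0.05 for 6 (20%) with a difference below 0 and for 1 (3.33%) with it above 0. In all genes tested these shares were 3.74% and 3.25%. A few members stood apart. Creb3l1, a membrane-bound factor that acts on secretory genes, went from 116, 150, 135, 130 and 94.2 CPM to 0.343, 0.304, 0.408, 6.46 and 3.09 CPM in double-floxed organoids and from 66.4, 101, 113 and 113 CPM to 28.9, 33.2, 29.3 and 36.9 CPM in Foxa2-floxed organoids. Vehicle levels of the 2 genotypes overlapped, and after 4-OHT 1.70% of the mean was left in the double-floxed lines against 32.6%. It fell by 6.09 in the double-floxed lines (edgeR adjusted p = 0.00919), and the difference was -4.48 ± 0.75 (edgeR adjusted p = 0.27).

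Cebpa, a factor of alveolar and hepatic differentiation, went from 138, 212, 147, 92.3 and 165 CPM to 35.2, 64.6, 35.0, 53 and 73.0 CPM in double-floxed organoids and from 182, 205, 221 and 287 CPM to 133, 182, 141 and 178 CPM in Foxa2-floxed organoids. Its difference was smaller, at -1.13 ± 0.29 (edgeR adjusted p = 0.484). Foxp2, a forkhead factor of lung epithelium, had effects of -5.64 and -1.84 and a difference of -3.80 ± 0.59 (edgeR adjusted p = 0.252). Prox1, a factor of liver and lymphatic development, was at or near 0 in all libraries but those of lines 1027D and 1526C. There it went from 18.8 and 19.1 CPM to 0.254 and 0.208 CPM and from 3.70 and 3.86 CPM to 1.72 and 1.87 CPM, so its difference of -5.23 rested on 1 line of each genotype.

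The airway secretory list had a median difference of -0.81, with 13 of 19 below 0. Muc5b, a gel-forming airway mucin, went from 725, 599, 626, 244 and 330 CPM to 14.9, 0.457, 2.86, 8.39 and 1.25 CPM in double-floxed organoids. In Foxa2-floxed organoids it held 12.8, 355, 10.1 and 10.7 CPM with vehicle and 15.2, 200, 6.11 and 4.03 CPM with 4-OHT, where replicate 2 of line 1267B was high in both treatments. Muc5b fell by 7.24 in the double-floxed lines (edgeR adjusted p = 0.0138), and the difference was -6.42 ± 1.08 (edgeR adjusted p = 0.27).

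Some lists had a median difference above 0. The ciliated list had the highest, at 1.04, from 6 members tested, 4 of them above 0, and median effects of 1.52 and 0.41. Its member with the smallest p, Tppp3, a microtubule-binding protein of ciliated cells, had a difference of 2.53 (edgeR adjusted p = 0.442), and Foxj1, the factor that sets up motile cilia, one of 1.88 (0.791). Squamous and basal genes had a median difference of 0.75, with 21 of 27 above 0 and median effects of 1.69 and 0.59. Of these, 4 had an unadjusted p under 0.05 with a difference above 0, and 1 with a difference below 0. The latter was Krt6a, a keratin, which had the smallest p of the list. Its effects were -1.96 (edgeR adjusted p = 0.0266) and 0.17, and its difference was -2.13 (edgeR adjusted p = 0.442). Pkp1, a plakophilin of desmosomes, went from 1.68, 13.4, 1.95, 3.04 and 14.5 CPM to 10, 39.6, 13.9, 7.84 and 35.4 CPM in double-floxed organoids and had a difference of 1.88 ± 0.49 (edgeR adjusted p = 0.484). Its Foxa2-floxed libraries held 69.5, 6.15, 6.69 and 15.6 CPM and then 45.6, 16, 12.5 and 21.0 CPM, and they overlapped. Krt80, a keratin of stratified epithelium, had effects of 1.35 and 0.60 and a difference of 0.75 ± 0.25 (edgeR adjusted p = 0.632).

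Alveolar type 1 genes had a median difference of 0.53, with 15 of 17 above 0, from median effects of 0.48 and -0.05. Aqp5, an alveolar type 1 water channel, had a difference of 0.51 ± 0.22 (edgeR adjusted p = 0.727). The transitional alveolar list had a median difference of 0.37, with 13 of 18 members above 0. At an unadjusted p under 0.05, 4 lay above 0 and 2 below. The latter were Itgb6, an integrin subunit, at -0.62 and Anxa3, an annexin, at -0.65. Krt8 and Krt18, the simple-epithelium keratins of this list, rose in the double-floxed lines by 1.03 and 0.89 (edgeR adjusted p = 0.0171 and 0.0155). Their differences were 0.73 ± 0.21 and 0.72 ± 0.17 (edgeR adjusted p = 0.536 and 0.447). Krt8 means were 1784 and 3776 CPM in double-floxed and 1896 and 2387 CPM in Foxa2-floxed organoids (vehicle and 4-OHT).

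Other lists had similar medians in both genotypes or medians near 0. Interferon response genes had median effects of 2.31 in double-floxed and 3.43 in Foxa2-floxed organoids and a median difference of -0.48, with 20 of 25 below 0 and none at an unadjusted p under 0.05. All 24 cell cycle genes had a difference below 0, but the median was -0.29 and none had an unadjusted p under 0.05. Pcna, the sliding clamp of replication, had a difference of -0.43 ± 0.28. Medians were within 0.15 of 0 for the lists of lipid synthesis (0.11), MAPK feedback (0.09), unfolded protein response (-0.04), YAP and TEAD targets (0.09), and hypoxia with glycolysis (0.14).

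Wnt targets had 6 of 8 members below 0 and a median difference of -1.12. Sp5, a direct Wnt target, went from 29.3, 0, 0.597, 12.7 and 0 CPM to 0.44, 0, 0, 0.415 and 0 CPM in double-floxed organoids and from 1.40, 0.879, 7.36 and 4.95 CPM to 1.13, 0.186, 1.40 and 1.04 CPM in Foxa2-floxed organoids, with a difference of -3.79 ± 0.76 (edgeR adjusted p = 0.414). Line 1027D had none in either treatment. Lgr5, the intestinal stem cell receptor, was at means of 19.9 and 13.2 CPM and of 0.454 and 1.82 CPM, with a difference of -2.18 ± 0.75 (edgeR adjusted p = 0.632). The median of the NF-kB and chemokine list was -0.05. Its member Icam1, an adhesion molecule, fell by 2.72 with both genes floxed (edgeR adjusted p = 0.0138), from 155, 219, 273, 452 and 221 CPM to 48.3, 23.5, 42.8, 101 and 21.9 CPM. The Foxa2-floxed effect was -0.75 and the difference -1.97 ± 0.46 (edgeR adjusted p = 0.447).

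**Figure D4:**
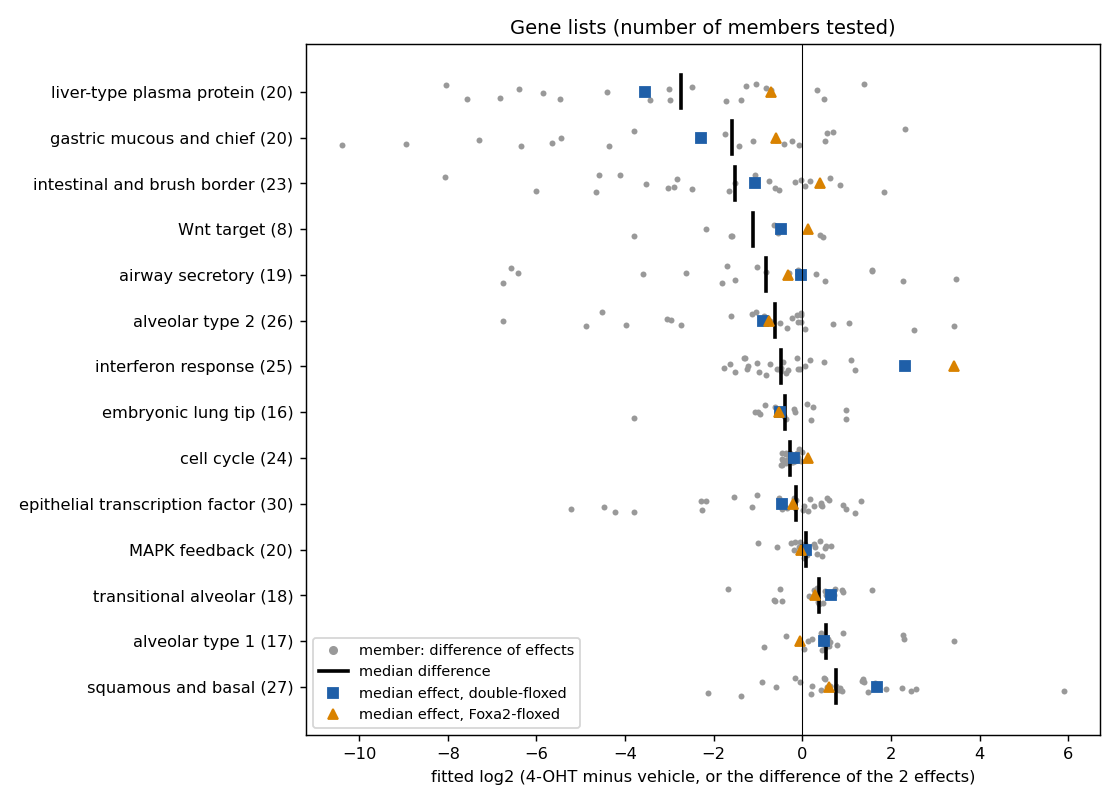
Difference of effects for each member of 14 gene lists (grey points), the median difference (black bar) and the median effect in double-floxed (blue squares) and Foxa2-floxed (orange triangles) organoids, all on the fitted log2 scale. Liver-type, gastric and intestinal genes lie furthest below 0 (medians -2.73, -1.59 and -1.51), squamous and alveolar type 1 genes lie above it (0.75 and 0.53), and the interferon list is high in both genotypes.

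Whether the response to loss of both genes exceeded the sum of the responses to each single loss, on the log2 scale, was tested with the 3 Foxa1-floxed lines 1552A, 1552B and 1552C (6 vehicle and 6 4-OHT libraries, floxed Foxa1 with the same p53 and CreERT2 alleles). All Foxa1-floxed libraries lay in library series 19659, which held no double-floxed library. A difference between these genotypes therefore cannot be told apart from one between series. Of 19085 genes, 1 (0.00524%) departed from additivity at an edgeR adjusted p under 0.05, and 1469 (7.7%) did at an unadjusted p under 0.05. That gene was Tff1, at -5.97 ± 0.53 (SE; edgeR adjusted p = 0.0444). In Foxa1-floxed organoids Tff1 held 723, 907, 1469, 805, 881 and 1356 CPM with vehicle and 211, 490, 1045, 1024, 816 and 1570 CPM with 4-OHT, an effect of -0.41. Its effects within the lines were -9.66, -8.44 and -9.01 in the double-floxed, -3.16 and -2.53 in the Foxa2-floxed and -1.17, -0.17 and 0.09 in the Foxa1-floxed lines. The call did not hold under RLE normalisation (edgeR adjusted p = 0.0549) or without line 1027B (0.0706), 1292B (0.0689), 1526C (0.247), 1552B (0.113) or 1552C (0.204). The direction was the same in each of these, with values from -6.05 to -5.62.

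The next genes by p were Stk32a (a protein kinase), Prodh (proline dehydrogenase) and Tigit (an immune checkpoint receptor of lymphocytes) below 0, and Mfap3l, Stbd1 (a glycogen-binding protein), Lpl (lipoprotein lipase) and Rasgrf2 above it. None passed the threshold: their departures were -2.96 ± 0.34, -3.19 ± 0.37 and -2.89 ± 0.32, and 2.64 ± 0.36, 3.10 ± 0.42, 4.16 ± 0.56 and 3.89 ± 0.53, with edgeR adjusted p of 0.0707 for 6 of them and 0.0922 for Rasgrf2. Prodh went from 4.38, 10.4, 26.1, 23.5 and 16.4 CPM to 0.489, 0.0507, 4.02, 4.75 and 3.39 CPM in double-floxed organoids, and from 4.05, 7.45, 0.279 and 0.808 CPM to 4.72, 6.60, 0.446 and 0.612 CPM in Foxa2-floxed organoids. It was thus near its vehicle level in both Foxa2-floxed lines (-0.03 and -0.09), and it was above it in the 3 Foxa1-floxed lines (1.01, 0.22 and 0.46). Tigit went from 31.8, 66.3, 63.1, 82.9 and 97.2 CPM to 5.24, 19.3, 20.5, 27.5 and 24.8 CPM in double-floxed organoids, with no overlap, and from 3.58, 12.4, 4.22 and 7.02 CPM to 6.72, 10.6, 9.23 and 10.1 CPM in Foxa2-floxed organoids.

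Stbd1 and Mfap3l had effects above 0 in all 3 double-floxed lines and below 0 in each of the other 5 lines. Genes here were chosen by p for the departure, and the share of all genes with such signs was not computed. The signs are therefore a description. For Stbd1 the mean was 5.11 and 10.8 CPM in double-floxed and 20.6 and 6.57 CPM in Foxa2-floxed organoids, and for Mfap3l 49.2 and 119 CPM, and 242 and 162 CPM (vehicle and 4-OHT). Lpl showed the same signs, but line 1526C supplied nearly all Foxa2-floxed reads (145 and 103 CPM with vehicle, 58.6 and 80.1 CPM with 4-OHT), and in line 1027B its sign rested on 1 count.

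**Figure D5:**
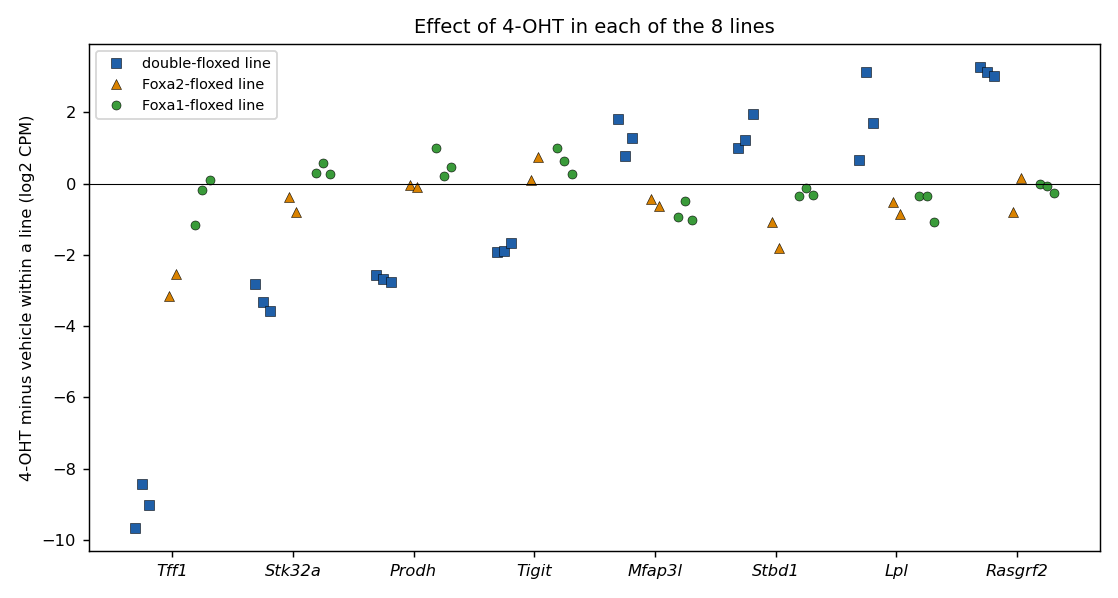
Effect of 4-OHT within each of the 8 lines (log2 CPM, 4-OHT minus vehicle) for the genes with the smallest p for a departure from additivity, with squares for the 3 double-floxed, triangles for the 2 Foxa2-floxed and circles for the 3 Foxa1-floxed lines. Tff1 lies between -9.66 and -8.44 in the double-floxed lines, against -3.16 and -2.53 in the Foxa2-floxed lines.

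Markers of other cell types were low. The summed level of 9 fibroblast markers was at most 14.8 CPM and that of 9 endothelial markers at most 4.76 CPM in any library, while 8 epithelial markers summed to 5858 to 19268 CPM. The 11 leukocyte markers summed to 6.49 to 21.7 CPM and then 11.8 to 55.3 CPM in double-floxed organoids, and to 6.09 to 17.2 CPM and then 11.5 to 40.4 CPM in Foxa2-floxed organoids. Of these, Tyrobp and Adgre1 were at 0 in all 4 groups and Laptm5 did not exceed 0.434 CPM. Csf1r, a receptor of macrophages, rose in the double-floxed lines by 4.34 (edgeR adjusted p = 0.00871), from 0.108, 0.336, 1.57, 0.0358 and 0.23 CPM to 3.47, 10.4, 27.5, 0.507 and 2.92 CPM, and had a difference of 1.90 ± 0.51 (edgeR adjusted p = 0.504). The part of other cells in the immune and protease genes named above was not tested beyond these levels.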

How the data were processed

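RNA was sequenced in 38 libraries, of which 18 entered the comparison. The authors deposited raw counts per gene in several tables, which did not follow the library series. Library series here means the number that opens each library title, which was not checked against sequencing runs. All double-floxed libraries with no hairpin shared the same table, and all Foxa2-floxed libraries lay in another. Count table and genotype therefore cannot be told apart. Per the submitters' processing notes, GRCm38, STAR 2.7.6a, featureCounts 1.5.1 and DESeq2 were used. The strand setting was not given in the sources used here, nor was the treatment of reads that map to several genes, so antisense and near-identical genes are uncertain. Tables were joined on 55406 gene IDs, 99.5% with a symbol. Counts were summed per line and treatment, filtered with filterByExpr, normalised by TMM and tested with edgeR 4.0.16 (quasi-likelihood, Benjamini-Hochberg over all genes tested, threshold 0.05, R 4.3.3, limma 3.58.1), with the line as block and 3 residual degrees of freedom. DESeq2 1.42.0 was an alternative. Log2 values of single lines used a prior count of 2. Scripts were tested on simulated data.

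Pairing comes from the line named in the labels. Deviations of vehicle and 4-OHT sums of a line correlated at 0.736, 0.695 and 0.682 in the double-floxed and 0.856 in both Foxa2-floxed lines, where the latter are equal by construction. Line 1526C lay wholly in another library series from the other 4 lines, so that line and that series cannot be told apart. Hairpin libraries were normalised within their own table.

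Named genes were Foxa1, Foxa2, Foxa3 and Nkx2-1, then up to 12 called genes per direction whose mean log2 CPM was no less than 1 and whose sign held without any 1 line. With fewer than 8, places up to 8 went to the smallest p. Up to 4 members per list and up to 4 genes per direction for additivity were added by p. The members and lists were chosen with earlier results of these data known. Intervals on counts are exact and cover counting error only. One further allele that all lines share is not reported here.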

Additional observations from a re-analysis of the deposited data

Results flagged for a closer look

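Among 199 groups of libraries, 27 held 1 library far from the others, where chance gives about 1 in 20. Line 1292B had 1 library per treatment, and in the other lines the repeat library of the same line often did not share the level, as for Sftpc in line 1027B with vehicle (887 against 4.97 CPM) or Muc5b in line 1267B with vehicle (355 against 12.8 CPM). In line 1292B, replicate 3 was high for Fcgbp (39.4 CPM with vehicle, 122 CPM with 4-OHT), Lgals4 (761 and 115 CPM), Cdhr5 (20.4 and 8.39 CPM) and, with vehicle, Csf1r (1.57 CPM). In line 1027B, replicate 1 was high for Sema6a (0.54 and 16.4 CPM), Sftpc (887 and 17.2 CPM), Cxcl15 with vehicle (2532 CPM) and Mfap3l with 4-OHT (246 CPM), and replicate 4 with 4-OHT for Vsig1 (5.49 CPM) and Aqp5 (3512 CPM). In line 1027D, replicate 5 was high with 4-OHT for Trf (1.16 CPM), Sftpa1 (1.70 CPM) and Serpind1 (0.0298 CPM) and stood apart with vehicle for Aqp5 (526 CPM), and replicate 2 with vehicle was high for Ttr (8.62 CPM) and Stk32a (137 CPM). In Foxa2-floxed line 1267B, replicate 2 was high for Muc5b (355 and 200 CPM), Nipal2 with vehicle (23.5 CPM) and Pla2g1b with 4-OHT (13.8 CPM), and replicate 1 for Pkp1 with vehicle (69.5 CPM) and Vsig1 with 4-OHT (38.0 CPM).

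For 10 of 50 genes examined, all 3 double-floxed lines moved one way and both Foxa2-floxed lines the other, which 4.84% of all genes tested also did. The 50 genes were largely chosen for a small p of this same difference, so the count is a description. For Lpl and Cdhr5 the sign in line 1027B rested on 1 count. These genes were Foxa1 (difference -2.50), Abcb1b (-3.04), Cdhr5 (-3.04), Myo1a (-2.83) and Tigit (-2.24), and Lpl (3.42), Fcgbp (3.04), Stbd1 (2.85), Mfap3l (1.85) and Bmp1 (1.72), on the log2 scale. The edgeR test of each difference gave an adjusted p above 0.05. Tff1 departed from additivity by -5.97, with the limits given above.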

How the results depend on the processing

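The difference of effects gave 0 genes in each direction in the fit summed per line, and likewise with RLE normalisation, a minimum-fold test and no replicate block. It gave 19 higher and 74 lower without a filter on low counts, 122 and 189 by DESeq2, 1 and 18 with single libraries and the line as replicate block, 68 and 122 with a replicate block of line and library series, and 7 and 30 with all 8 lines. Leaving out a library or line gave 0 to 1 higher and 0 to 2 lower, and library series 17699 and 17992 alone gave 1 lower. The double-floxed effect (615 higher, 561 lower) gave 996 and 960 without a filter, 1732 and 1601 by DESeq2, 949 and 909 with single libraries and the replicate block, and 23 to 363 and 59 to 325 without 1 line. The Foxa2-floxed effect (0 and 0) gave 68 and 27, 184 and 88, and 9 and 10 in the same order. Additivity (0 higher, 1 lower) gave 0 lower with RLE, 10 and 71 without a filter, 79 and 157 by DESeq2, 12 and 64 with single libraries and the replicate block, and 0 to 2 higher and 0 to 4 lower without 1 line. The cause of these shifts was not tested. Of 1696 values of named genes under alternatives, 5 reversed, all near 0: Foxa2 to -0.02 without line 1526C and in library series 17699 and 17992 alone, and Nkx2-1 to -0.10 in both of these and to -0.01 without double-floxed vehicle replicate 4. Leaving out 1 library or line gave -0.02 to 1.39 for Foxa2 and -0.10 to 0.40 for Nkx2-1. Another 158 passed the threshold that the value summed per line did not, and 6, all Tff1 additivity, lost it. Whether depth or the number of lines limits the precision was not tested.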
